A study of Caenorhabditis elegans with 4 samples.

Results

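Chromosome II of the worm Caenorhabditis elegans carried 1008 of the 6862 MRE-11 peaks that the series-level list holds on the 6 nuclear chromosomes. All peaks that this list places on II were taken, whatever their score or width. They came from chromatin immunoprecipitation followed by sequencing (ChIP-seq), in which DNA bound by a protein is pulled down with an antibody and its enriched stretches are called as peaks. The animals were hermaphrodites labelled as young adults with a germline, all carrying fem-2(b245) III, and were grown at 20 °C, so no group without the mutation was compared. The fem-2 gene product is a protein phosphatase that promotes male fate in sex determination, and b245 is a temperature-sensitive allele. The growth protocol in the labels describes gravid adults collected from synchronized batch cultures, and whole ground animals were used, so germline and somatic nuclei are mixed. The series has 2 ChIP replicates, made with a polyclonal MRE-11 antibody from rabbit that had been affinity purified, and 2 input DNA samples, whose signal was not analysed here. Nothing in the labels says that separate cultures were used for them.

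MRE-11 is a nuclease that works with RAD-50 at DNA double-strand breaks, where it trims the broken ends so that repair by recombination can start. In the worm germline it is needed both for making and for processing the breaks that start meiotic recombination. Worm autosomes have a central region of low crossover rate, rich in conserved genes, between arms with more crossovers, more repeats and more H3K9-methylated chromatin. These are general facts about the protein and the chromosomes, and none of the peaks below was tied to a break or to a gene.

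II carried about as many peaks as its length would give. Positions are on WormBase WS220, and the length of II was taken as its last peak end, 15279342 bp. The 1008 series-level peaks made up 14.7% of the list on 15.2% of the summed chromosome length, a ratio of 0.96 (95% exact binomial interval 0.91 to 1.02). That was 66.0 peaks per Mb, between V with 50.9 and IV with 71.9. Replicate 1 had 213 peaks on II and replicate 2 had 707, or 460 ± 349 (SD, n = 2). Relative to length these were ratios of 0.89 and 1.05, which lay on different sides of 1. The peaks on II covered 406 kb in the series-level list, 400.0 kb in replicate 1 and 348 kb in replicate 2, or 2.66%, 2.62% and 2.28% of the chromosome. The replicates therefore differed far more in the number of intervals than in the sequence they covered. With 2 ChIP samples of 1 group no test over samples was made, and the intervals given here cover counting error only, since neighbouring peaks are not independent.

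With II cut into 3 equal segments, the outer and the central segments had close peak densities in the series-level list, and the replicates differed in this measure. By midpoint, the left segment (bases 1 to 5093114) held 300 peaks, the central segment 317 and the right segment (from base 10186229) 391. These were 58.9, 62.2 and 76.8 peaks per Mb, so by peak number the right segment was the densest and the left the sparsest. By covered sequence the left and central segments were level, at 2.39% and 2.37%, and the right had 3.21%. The outer segments together held 691 peaks, or 68.6% (65.6 to 71.4), where all nuclear chromosomes together had 71%. The density ratio of outer to central was 1.09 (0.95 to 1.25), and among the upper 50% of the list by score it was 0.90, the other side of 1. Replicate 1 had 77, 56 and 80 peaks in the left, central and right segments, a ratio of 1.40 (1.03 to 1.94). Replicate 2 had 174, 240 and 293, a ratio of 0.97 (0.83 to 1.14), and the mean over replicates was 1.19 ± 0.30 (SD, n = 2). Replicate 1 was thus poorest in the centre and replicate 2 poorest in the left segment. On the other autosomes the ratio was also higher in replicate 1 (1.42 to 2.05) than in replicate 2 (0.94 to 1.03). On X both replicates were high, at 2.11 and 1.83.

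**Figure D1:**
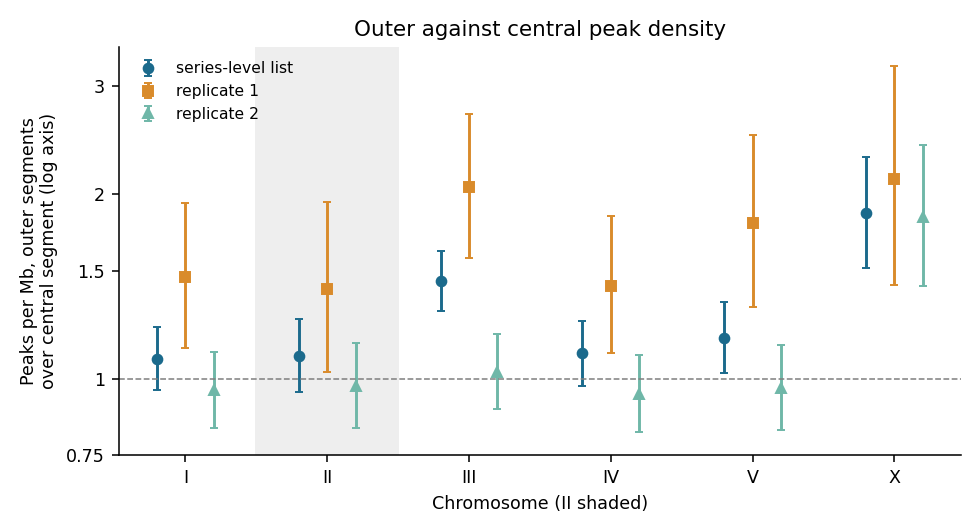
Peaks per Mb in the outer segments divided by peaks per Mb in the central segment (log axis), for each chromosome and each of the 3 peak lists, with 95% exact binomial intervals that cover counting error only. On II the series-level list lies at 1.09, replicate 1 at 1.40 and replicate 2 at 0.97.

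In windows of 500 kb, II had a few dense windows spread over its whole length. Over the 30 full windows the series-level list held 12 to 63 peaks with a median of 32, replicate 1 held 1 to 15 with a median of 6, and replicate 2 held 11 to 46 with a median of 20.5. On the other autosomes the median window held 36 series-level peaks and the fullest 208. The 5 fullest windows on II were II:11500001-12000000 with 63 peaks, II:1000001-1500000 with 58, II:14000001-14500000 with 56, II:8000001-8500000 with 50 and II:9500001-10000000 with 46. Of these, 1 lies in the left segment, 2 in the central and 2 in the right segment. The replicates did not share the order of these windows. II:1000001-1500000 was the fullest window of replicate 1, with 15 peaks, and held 22 in replicate 2, where it was number 12 in order. II:14000001-14500000 was the fullest of replicate 2, with 46 peaks, and number 3 in replicate 1, with 12. II:8000001-8500000 held 40 peaks in replicate 2 but 5 in replicate 1, below the median of that list. Over the 30 windows, which share the libraries and the mappable sequence of the chromosome, Spearman's rho between the replicates was 0.24.

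**Figure D2:**
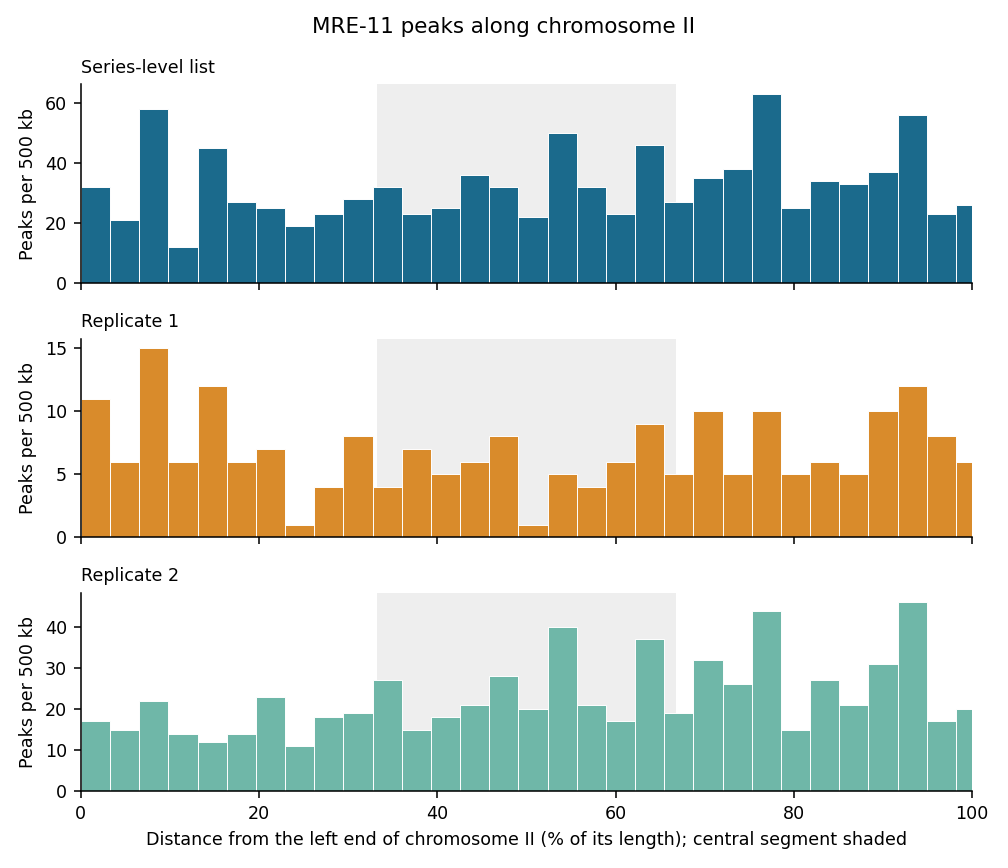
Peaks per 500 kb window along chromosome II, by midpoint, in the series-level list (top), replicate 1 (middle) and replicate 2 (bottom), against the distance from the left end in percent of the chromosome's length; the last window is shorter, and the central segment is shaded. Replicate 1 reaches its highest count, 15, near the left end, and replicate 2 its highest, 46, near the right end.

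The emptiest windows lay towards the left end. II:1500001-2000000 held 12 series-level peaks, II:3500001-4000000 held 19 and II:500001-1000000 held 21. The first of them lies next to one of the fullest windows. The longest stretch without a series-level peak was II:3602593-3796368, at 194 kb, and neither replicate had a peak in it. II:1498033-1661327 followed with 163 kb, then II:5181740-5322003 with 140 kb, II:5907740-6047640 with 139.9 kb and II:1661617-1796683 with 135 kb. All of these 5 stretches lie in the left part of the chromosome, before its midpoint, and 3 of them held at least 1 replicate peak or the edge of one. Neighbouring series-level peaks were usually much closer, with a median gap of 5367 bp, and 271 of the 1007 gaps (26.9%) were 1 kb or less. The median gap was 5460 bp in the left, 6796 bp in the central and 4046 bp in the right segment.

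Series-level peaks on II were mostly narrow. Their width ranged from 146 to 5494 bp with a median of 280 bp (quartiles 203 and 423), and the medians of the other chromosomes ranged from 273 to 285 bp. The replicate peaks on II were wider, with medians of 1354 bp in replicate 1 and 371 bp in replicate 2. Of the series-level peaks on II, 52 (5.16%) were 1000 bp or wider, where all nuclear chromosomes together had 6.32%. These 52 held 24.0% of the bases in peaks on II. Of them, 43 lay in the outer segments, 18 on the left and 25 on the right, and 9 in the centre. Broad peaks made up 6% of peaks in the left, 2.84% in the central and 6.39% in the right segment.

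The score, the authors' own value for each peak with no unit in the file header, was typical of the whole list. The median score on II was 7.61, at percentile 50.6 of all nuclear peaks, and chromosome medians lay between percentiles 47.4 and 52.9. Of the 100 highest-scoring peaks of the list, which are 1.46% of all peaks, 9 were on II, or 0.893% of its peaks. Of the 1000 highest, which are 14.6% of all, 155 were on II, or 15.4% of its peaks. At the top of the list II thus had fewer peaks than its share, with an interval (4.20% to 16.4% of the 100 highest) that includes the 14.7% it has of the list. The highest II peak was number 30 of the list. Higher scores went with greater widths across the peaks of II (Spearman's rho 0.59 over 1008 peaks), with values of 0.56 to 0.64 on the other chromosomes.

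**Figure D3:**
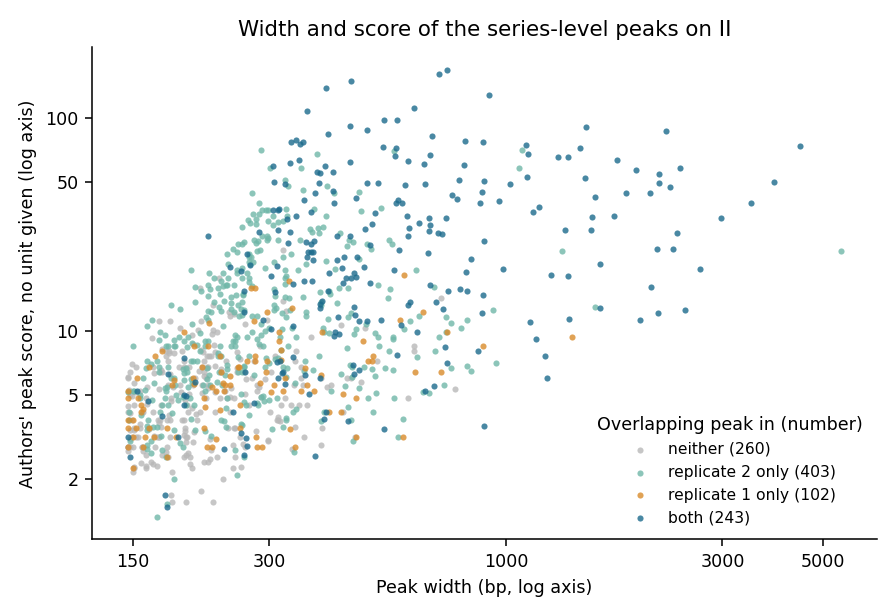
Width (bp) and authors' score of the 1008 series-level peaks on II, both on log axes, coloured by the replicates in which an overlapping peak was found. The highest scores, up to 168.79, belong to peaks under 1000 bp wide, and the widest peak, at 5494 bp, overlapped a peak of replicate 2 only.

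By series-level score, the 10 strongest sites on II were each under 1000 bp wide. Of these, 6 of 10 lay in the centre, which held 31.4% of all series-level peaks on II. The 10 highest-scoring peaks had scores of 91.42 to 168.79 and widths of 364 to 915 bp, all above the median width of 280 bp on II. Of them, 6 lay in the central, 3 in the right and 1 in the left segment, and each overlapped a peak in both replicates. The highest was II:10033309-10034049, 741 bp wide with a score of 168.79. It overlapped a replicate 1 peak with a score of 493.36 (percentile 79.3 of that list) and a replicate 2 peak with 2671.96 (percentile 97.97). The fourth, II:10034622-10035020 with a score of 138.87, followed after a gap of 572 bp, and the pair was covered by 2 peaks in each replicate. A second close pair was II:5346374-5346828 (149.21) and II:5349974-5350888 (128.56), 3145 bp apart. The 6 central peaks include both of these pairs, so they are not 6 separate places.

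The other strong sites formed no close pair with another of the 10. II:4701260-4701970, the only one in the left segment, scored 161.79 and overlapped the highest-scoring replicate 2 peak of II, at 3205.56, but a replicate 1 peak with 536.8 (percentile 80.4). II:10563056-10563681 scored 111.6, II:14561586-14561949 scored 107.58, II:7478628-7479202 scored 97.76, II:6269619-6270156 scored 97.69 and II:14154190-14154641 scored 91.42. Their replicate 2 partners lay at percentiles 90.8 to 96.2 of that list and their replicate 1 partners at 41.2 to 78.6. In each of the 10, the replicate 1 partner had the lower percentile. The lists differ in length, with 1579 nuclear peaks in replicate 1 and 4403 in replicate 2, so equal percentiles are not equal ranks.

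The 10 broadest sites were a different set from the 10 strongest by series-level score, and were spread over all segments. None of the 10 widest series-level peaks was among the 10 highest by score. Broad peaks were not weak, since those of 1000 bp or more had a median score of 35.51, against 7.18 for narrower ones. In the replicate lists, some of the highest-scoring peaks lay at these broad sites. They were 2330 to 5494 bp wide with a median score of 31.2, and 4 lay in the left, 2 in the central and 4 in the right segment. The widest, II:14601157-14606650, measured 5494 bp with a score of 23.7. It matched a replicate 2 peak of 5687 bp with a score of 3100, a value that 7 replicate 2 peaks on II share, and no replicate 1 peak overlapped it. The value 3100 was also the highest score of replicate 1 on I, IV and V and of replicate 2 on III. Why it recurs was not tested, so the order of scores near it is uncertain. The second, II:8288293-8292747 (4455 bp, score 74.18), overlapped peaks scored 3100 in both replicates, 6083 bp wide in replicate 1 and 4466 bp in replicate 2. II:4641158-4645057 (3900 bp, score 49.88) overlapped a replicate 1 peak with a score of 2493.19 and 3 peaks of replicate 2, of which the highest scored 1057.07.

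Some broad sites had very different percentiles in the replicates. Percentiles are within lists of unlike length, so part of such a difference can come from the length of the list. II:8744233-8747702 (3470 bp) had a replicate 2 score of 3100, at percentile 99.1, and a replicate 1 score of 118.92, at percentile 42.5. II:10932750-10935130 (2381 bp) had 2520.75 in replicate 2 (percentile 97.8) and 127.88 in replicate 1 (percentile 45.4). II:3466388-3468870 (2483 bp) was weak in replicate 1, at 59.22 (percentile 10.2), and lay at percentile 77.6 in replicate 2. By contrast, II:12843653-12846075 (2423 bp) overlapped the highest-scoring replicate 1 peak of II, at 3208.95, and a replicate 2 peak with 2176.95. II:693642-696615 (2974 bp), II:1455840-1458510 (2671 bp) and II:11977641-11979970 (2330 bp) lay at percentiles 81.2 to 94.1 in replicate 1 and 91.9 to 97.9 in replicate 2.

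Among the highest-scoring replicate peaks, II:15137837-15141219 near the right end scored 3176.9 in replicate 1 and overlapped 3 replicate 2 peaks, of which II:15138143-15140371 scored 3100. The fourth of replicate 1, II:13984363-13987150, scored 2704.92, with a highest replicate 2 score of 788.89. The replicate 2 peaks II:11756761-11759066 and II:11759717-11761970, each at 3100, lay 650 bp apart, and both overlapped the same replicate 1 peak, which scored 72.75. II:9631710-9633161 scored 3100 in replicate 2 and its replicate 1 partner 2053.62. The scores have no stated unit, so their sizes cannot be compared between the replicates.

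Most series-level peaks on II overlapped a replicate 2 peak by at least 1 bp, and fewer overlapped replicate 1. For replicate 1 the count was 345 of 1008, or 34.2% (31.3 to 37.2), where 37.7% of all nuclear peaks did so. For replicate 2 it was 646, or 64.1% (61.0 to 67.1), where the whole list had 58.8%. Both replicates overlapped 243 peaks (24.1%, whole list 23.2%), replicate 2 only 403 (40.0%, whole list 35.6%), replicate 1 only 102 (10.1%, whole list 14.4%) and neither 260 (25.8%, whole list 26.8%). The shares for both and for neither are near those of the whole list. For replicate 1, replicate 2, replicate 1 only (8.33 to 12.1) and replicate 2 only (36.9 to 43.1), the intervals exclude the whole-list share. They cover counting error only. Chromosome III, with 25.2% of its peaks in the replicate 1 only class, raises that share of the whole list, and on I, IV, V and X it was 9.89% to 13.9%. III also had 45.4% for replicate 1, 51.5% for replicate 2 and 31.3% for replicate 2 only. On I, IV, V and X these shares were 31.6% to 39.8%, 56.4% to 62.7% and 26.5% to 41.6%. Chromosome I, with 31.6%, 62.7% and 41.6%, was close to II, so these shares are not particular to II.

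Peaks that overlapped both replicates had the highest median score and the greatest median width. Their median score was 23.55 and their median width 486 bp. Peaks overlapping replicate 2 only had medians of 9.37 and 274 bp, replicate 1 only 5.58 and 257.5 bp, and neither 4.83 and 207.5 bp. With the peaks of II split into 5 equal groups by score, overlap with replicate 2 went from 31.2% of the lowest 202 to 99.5% of the highest 201. Overlap with replicate 1 was 22.8%, 27.2% and 22.8% in the lower 3 groups, then 34.8% and 63.7%. Of the 52 broad peaks, 47 overlapped replicate 1 and 51 replicate 2, and each overlapped at least 1 of them. The share of peaks in the outer segments was 74.3% (67.7 to 80.1) in the lowest score group and 58.7% (51.6 to 65.6) in the fourth. Wider intervals overlap more easily by 1 bp, and the part of width in these trends was not tested.

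**Figure D4:**
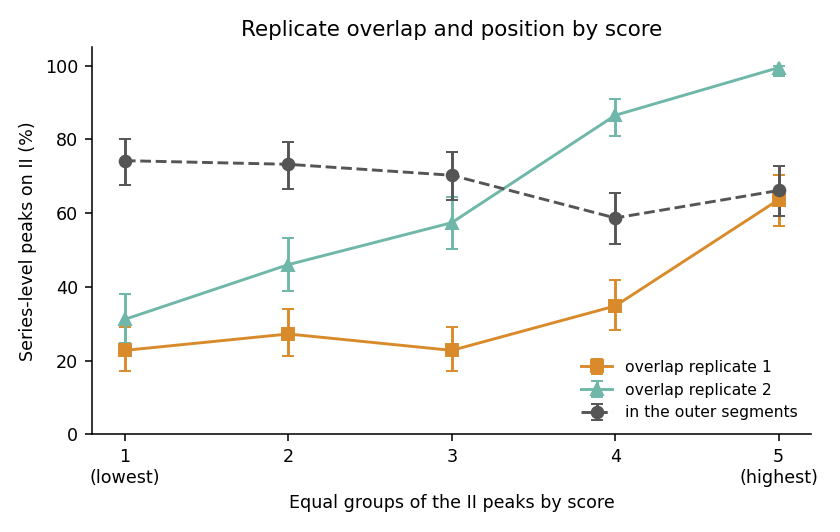
Share of series-level peaks on II that overlap replicate 1, overlap replicate 2 or lie in the outer segments (%), in 5 equal groups by score, with 95% exact binomial intervals. Overlap with replicate 2 reaches 99.5% in the highest group and overlap with replicate 1 63.7%, and the outer share is 74.3% in the lowest group and 58.7% and 66.2% in the upper 2.

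The strongest peaks that lacked an overlapping peak in at least 1 replicate were as follows. Among peaks overlapping replicate 2 only, the highest were II:12006627-12006914 (70.97), II:13826565-13827646 (70.63) and II:11782435-11783000 (70.11), all in the right segment and all among the 209 highest of the whole list. The highest that overlapped replicate 1 only were far lower, at II:2570416-2571011 (18.28), II:385999-386330 (17.04) and II:1242538-1242816 (15.92, tied with 1 other such peak, also in the left segment), all in the left segment. The highest that overlapped neither were the last peak of the chromosome, II:15279021-15279342 (23.97), then II:7252276-7252507 (17.6) and II:12102384-12102594 (15.91).

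Overlap with each replicate differed between the left segment of II and the rest of it. There, 147 of 300 series-level peaks overlapped replicate 1 (49%, 43.2 to 54.8), against 27.1% (22.3 to 32.4) in the central and 28.6% (24.2 to 33.4) in the right segment. Overlap with replicate 2 went the other way, at 48.7% (42.9 to 54.5), 73.5% (68.3 to 78.3) and 68.3% (63.4 to 72.9). Of the 102 peaks that overlapped replicate 1 only, 78 (76.5%) lay in the left segment, 6 in the central and 18 in the right segment. The share of such peaks in the left segment was 85.8% on III, 65.2% on IV, 67.9% on X, 38.7% on I and 14.2% on V. In the replicates' own lists, 53 of 77 replicate 1 peaks in the left segment of II overlapped a replicate 2 peak (68.8%, 57.3 to 78.9), against 53 of 56 in the central (94.6%, 85.1 to 98.9) and 72 of 80 in the right segment (90.0%, 81.2 to 95.6). Over all of II it was 178 of 213 (83.6%, whole list 79.5%). Conversely, 267 of the 707 peaks of replicate 2 overlapped replicate 1 (37.8%, whole list 39.5%), with 49.4% in the left segment, 33.8% in the central and 34.1% in the right segment.

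**Figure D5:**
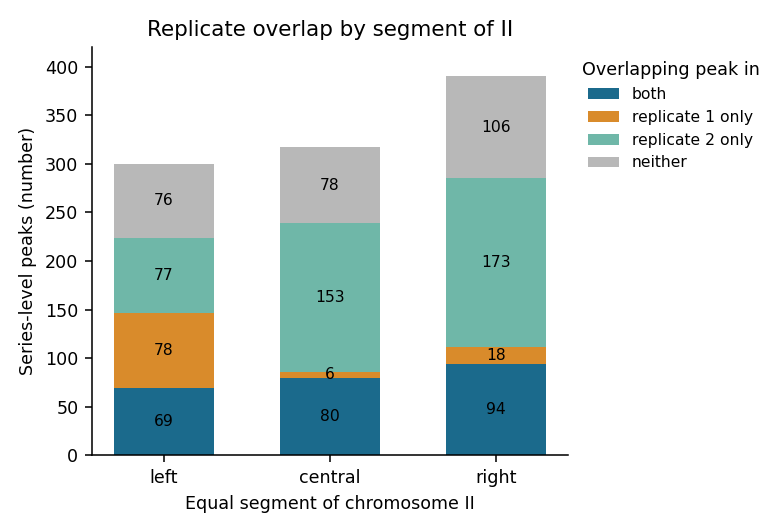
Number of series-level peaks in each segment of chromosome II, split by the replicates in which an overlapping peak was found. The replicate 1 only class holds 78 of 300 peaks in the left segment, 6 of 317 in the central segment and 18 of 391 in the right segment.

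The replicate 1 only peaks were grouped under few intervals. The 102 lay under 48 replicate 1 peaks, of which 29 lay in the left segment, a smaller share than that of the 102. Of the 48, 12 held 3 or more and together 59 of the 102. The windows II:1000001-1500000 and II:2000001-2500000, picked after their values were seen, held 53 of the 102. They were 26 of the 58 peaks of the first window and 27 of the 45 of the second.

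In several runs of close series-level peaks, 1 or 2 wide replicate 1 intervals covered many narrow peaks. With peaks 2 kb or less apart joined, 554 of the 1008 (55.0%) lay in 197 runs and 454 stood alone. The run with most peaks, II:9808043-9820209 in the central segment, held 14 peaks of 148 to 691 bp with scores of 1.68 to 7.69. It was covered by 2 wide replicate 1 peaks (4425 and 8890 bp, scores 121.5 and 108.01) and its span held 13 narrow replicate 2 peaks with scores of 57.19 to 242.99, of which 3 overlapped none of the 14. All 14 overlapped both replicates, with series-level scores no higher than 7.69, near the median of II.

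The next 2 runs lay in the left segment and met few replicate 2 peaks. II:2462074-2471414 held 13 peaks, all under 2 replicate 1 peaks (5958 and 3607 bp, scores 1360.7 and 717.39), and met a single replicate 2 peak of 221 bp with a score of 63.13. II:1493153-1498032 held 10 peaks under 1 replicate 1 peak of 5787 bp with a score of 1043.69, and no replicate 2 peak. The first is followed within 3 kb by II:2474184-2477099, whose 6 peaks lay under 1 replicate 1 peak of 3784 bp (585.87) and no replicate 2 peak. Not all runs of the left segment were of this kind. II:3159589-3168370 held 9 peaks under a replicate 1 peak of 9263 bp with a score of 145.4, the widest on II in that list, and 12 replicate 2 peaks overlapped 6 of the 9. In the right segment, II:13817696-13829790 held 8 peaks with a median score of 49.9, met by 4 replicate 1 peaks (scores 64.09 to 218.44) and 7 replicate 2 peaks (503.75 to 1646.64). A further replicate 2 peak in the span scored 76.54 and overlapped none of the 8.

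Nearly all replicate peaks on II were found in the series-level list. It overlapped 207 of 213 replicate 1 peaks (97.2%, whole list 97.6%) and 658 of 707 replicate 2 peaks (93.1%, whole list 92.9%). The peaks without one were weak in replicate 1, with scores of at most 61.65 (II:6823973-6825819, percentile 12.4). In replicate 2 their median score was 65.54, against 142.38 for all its peaks on II. The highest of them, II:8221157-8221723 at 128.11, lay at percentile 43.3. A replicate 1 peak lay over 2 or more series-level peaks in 77 cases, with up to 10 under 1 interval, and a replicate 2 peak in 27 cases, with up to 2.

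The first series-level peak of II overlapped peaks of both replicates and the last overlapped none. The first series-level peak, II:1-452, scored 61.91. It overlapped a replicate 1 peak of 1808 bp (533.99, percentile 80.2) and a replicate 2 peak of 456 bp (570.93, percentile 85.7). The last series-level peak marks the right end by construction, since the length of II was taken from it, and it overlapped no replicate peak. The last replicate 1 peak, II:15274191-15275382, scored 61.3, and the last of replicate 2, II:15232601-15233021, scored 243.67.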

How the data were processed

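BWA and build ce10 are named for the alignment per the submitters' processing notes. Peaks came in 3 lists that the authors deposited on WormBase WS220, per the file headers, called with MACS for each ChIP replicate and MACS v2 for the series-level list. The deposited score of each peak has no named unit and was used to order and describe peaks within a list. Where scores of different lists are printed side by side, their sizes cannot be compared. Control, settings and any pooling of replicates are not stated in the sources used. The lists hold no read counts, so the depth is unknown. Peaks were counted by midpoint, in 3 equal segments and in 500 kb windows. Overlap means at least 1 shared bp. Percentiles are ranks of the score within the nuclear peaks of a list, with ties at their middle. Intervals are 95% Clopper-Pearson. The named peaks were the 10 highest by score and the 10 widest (ties kept), the 3 highest of each overlap class short of both replicates, the 5 highest of each replicate (ties kept), the 3 highest replicate peaks without a series-level peak, the end peaks, and the extreme windows, runs and gaps. Some of them are given by count or range only. Members, lists and measures were chosen with earlier results of these data known. Genes were known only on WBcel235, a different assembly, so no peak was given a gene or a sequence. Measures were checked on simulated lists. Scripts ran on Python 3.11.15 with scipy 1.17.1, numpy 2.4.6 and, for plots, matplotlib 3.10.9.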

Additional observations from a re-analysis of the deposited data

How the results depend on the processing

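Of 40 alternative values for 11 results, 25 stayed within the counting interval, the SD over replicates or 1.5 times the count, and 15 moved further. The share of replicate 1 only peaks in the left segment, whose alternatives were chosen after seeing the data, ranged from 72% to 83.5%. Counted by replicate 1 peak instead, 29 of the 48 that held them lay in the left segment. In the upper 50% of each list by score, the outer to central ratio of the series-level list was 0.90, so the direction of that ratio depends on the score threshold. There the overlap was 22.4% with replicate 1, 17.5% with both and 34.0% with neither, the median width was 355 bp and the fullest window held 28 peaks. In that setting the replicate lists hold fewer peaks by construction. With peaks within 500 bp counted as overlapping, the shares were 68.9% for replicate 2, 27.4% for both and 22.6% for neither. By covered bases the ratio of II to its length was 0.90. With peaks within 1 kb merged, the median width was 325 bp and the outer to central ratio 1.00. Without 1 replicate, the share overlapping every remaining replicate was 34.2% to 64.1% and the share overlapping none 35.9% to 65.8%. Such shares are the overlaps with a single replicate and their complements, so they are among the 15 by construction. The outer to central ratio of the replicates was then 0.97 to 1.40. These 2 ratios are counted among the 25 by construction, since with 2 replicates each value lies within 1 SD of their mean. Other causes were not tested. No paired analysis was possible because peak lists were at hand for 1 group, the ChIP samples, and the equally numbered inputs were not analysed here.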
